A study of Mus musculus with 6 samples.

Results

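The genes of cholesterol synthesis and sterol sensing were examined in immortalized mouse fibroblasts that overexpressed *Ms4a15*. The group comprised 36 genes, chosen by symbol: 9 enzymes of the mevalonate pathway, 12 enzymes that carry squalene to cholesterol, 7 genes of the machinery of the sterol regulatory element binding proteins (SREBP) and 8 genes of sterol uptake, transport and storage. All 36 were found among the 19078 genes of the deposited expression table, 35 under their current symbol and 1, *Msmo1*, under the older symbol *Sc4mol*. RNA sequencing compared 3 libraries of *Ms4a15* OE cells with 3 libraries of control cells, which the labels call wild type. The study's methods describe both as derivatives of 1 parental line, mouse embryonic fibroblasts in which Gpx4 can be deleted through an inducible Cre-ERt2 and which carry a CRISPR activation system, grown in DMEM with serum. The *Ms4a15* OE cells were a pool in which a guide RNA activated *Ms4a15* at its own locus, and the control cells had received the empty lentivirus. Both groups therefore shared the conditional Gpx4 allele and the activation system. Treatment with the inducer of the deletion is not given for these libraries in the sources used here.

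Cholesterol is built from acetyl-CoA in the cytosol and the endoplasmic reticulum. The mevalonate pathway joins acetyl units into the isoprenoid farnesyl diphosphate, squalene synthase condenses this to squalene, and epoxidation and cyclization give lanosterol, the first sterol. Lanosterol is then trimmed and its double bonds are moved, and 7-dehydrocholesterol, the last intermediate of one branch, is reduced to cholesterol. Synthesis is sensed through SREBP2, which stays in the endoplasmic reticulum bound to SCAP and INSIG when sterol is plentiful and is cut in the Golgi apparatus when sterol is scarce, after which the released fragment switches on the synthesis genes. Sterol also enters cells with lipoproteins, leaves lysosomes through NPC2 and NPC1, and is stored as cholesteryl ester.

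The deposited table gave for each gene a mean normalized read count over the 6 libraries, a log2 fold change (*Ms4a15* OE divided by control) with a standard error, and the group means below were calculated from these values. Library-by-library values were not used here, so overlap between libraries could not be described. The standard error carries the variation among the 3 libraries of each group as the authors' fit estimated it. Because the labels do not say whether these came from separate cultures, the p-values may measure technical spread only. *Ms4a15* was at 1275 normalized counts in *Ms4a15* OE cells and at 0.174 in control cells, at least 452-fold higher when control is set to the floor of 3 reads per library (log2 fold change 12.84, standard error 1.18, adjusted p = 2.14e-26). Read totals were not used here, but the values of rarely counted genes gave relative library sizes between 0.887 and 1.14. Of the fibroblast markers, *Vim* (117789 normalized counts in control cells and 112480 in *Ms4a15* OE cells) and *Fn1* were abundant in both groups. *Lum* was below the floor in both groups and *Dcn* in control cells. The summed counts of 12 fibroblast markers went from 647494 to 304912, with 5 lower and 4 higher. From control to *Ms4a15* OE cells, *Col1a1* went from 128302 to 5659 normalized counts, *Col1a2* from 228230 to 42080 and *Pdgfrb* from 4018 to 283. *Col3a1* and *Col5a1* were the other lower genes, and *Pdgfra*, *Thy1*, *Dcn* and *S100a4* were higher. The epithelial, adipocyte, hepatocyte, myeloid and endothelial lists held 2 of 8, 3 of 6, 0 of 3, 2 of 5 and 3 of 6 higher genes in turn and no lower gene, and *Epcam*, *Adipoq* and *Alb* were below the floor in both groups. In a bulk sample, fewer cells of a type and less RNA per cell cannot be told apart.

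Mevalonate pathway and sensing genes were mostly lower in *Ms4a15* OE cells, and the strongest rises lay in lysosomal export and ester storage. Of the 36 genes, 20 were lower, 6 were higher and 10 were not called (Wald test of the log2 fold change, two-sided, Benjamini-Hochberg adjusted over all 19078 genes, adjusted p under 0.05). The same rule called 42.9% of all genes, 21.5% in each direction. Nearly all 36 genes were well expressed, and of the 10440 genes averaging 100 or more normalized counts the share called was 65.6%, with 34.9% lower and 30.7% higher. Against this, 72.2% of the cholesterol genes were called, 55.6% lower and 16.7% higher. Their median log2 fold change was -0.19, beside -0.02 over the 10440 genes, and 28 of the 36 values were below 0. Most changes were small: against a change of 1.2-fold rather than no change, 13 of the 36 genes were called (10 lower, 3 higher), beside 18.8% of all genes. That share includes rarely counted genes and was not calculated for the 10440 genes, so an excess cannot be read from it. The counts of the smaller lists below stand beside the shares of the 10440 genes given above.

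**Figure D1:**
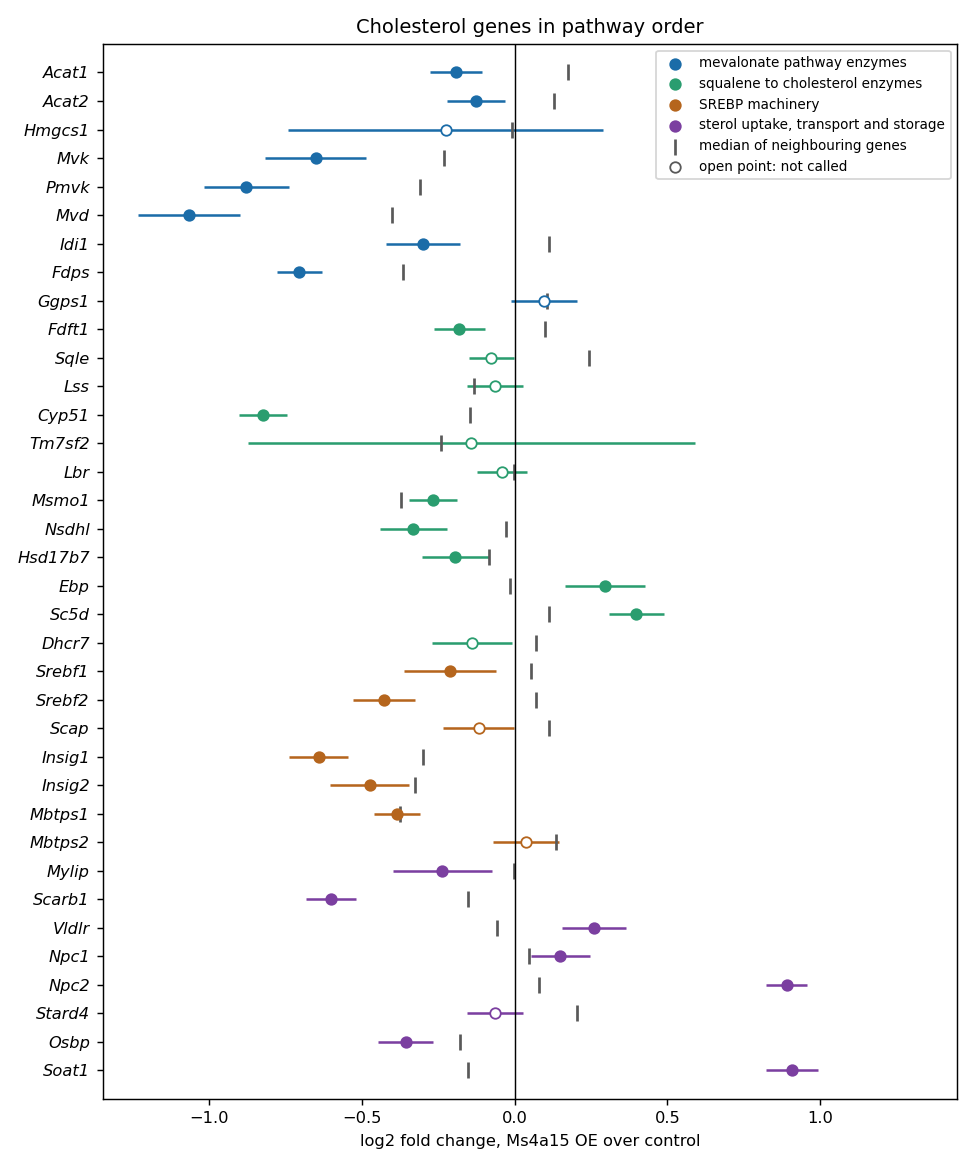
Log2 fold change, *Ms4a15* OE against control, for the 36 genes in pathway order, with 95% confidence intervals as bars, filled points for genes with an adjusted p under 0.05, open points for the others and grey ticks for the median of each gene's chromosomal neighbours. *Mvd* lies lowest at -1.07, *Npc2* and *Soat1* lie highest at 0.89 and 0.91, and the intervals of *Hmgcs1* and *Tm7sf2* are the widest.

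**Figure D2:**
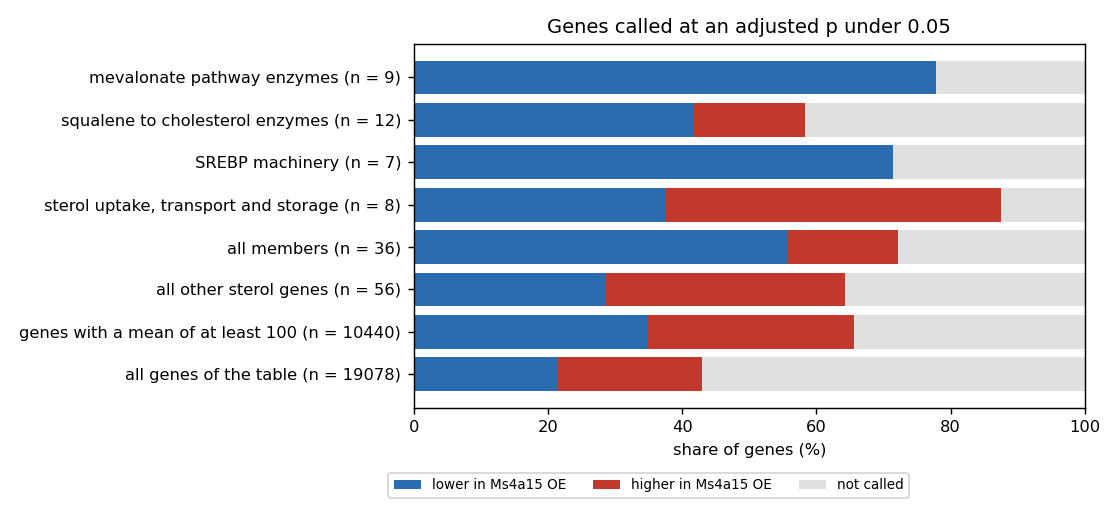
Share of genes (%) that were lower (blue), higher (red) or not called (grey) in *Ms4a15* OE cells at an adjusted p under 0.05. The mevalonate enzymes and the SREBP machinery hold lower genes and no higher gene, while the uptake, transport and storage genes are split between 3 lower and 4 higher.

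The proximal promoters of these genes are shown because SREBP2 is known to act at such sites together with NF-Y, which binds CCAAT, and Sp1, which binds GGGCGG. Promoter windows from RefSeq (GRCm38.p6) were matched for 29 of the 36 genes, 38 windows in all, and the 250 bases before the annotated start were searched on both strands for CCAAT, for GGGCGG and for TCACNCCAC, a sterol regulatory element, and the matches to each motif were counted separately. Of the 38 windows, 26 (68.4%) held CCAAT, compared with 36.2% of 9471 windows of genes averaging 100 or more normalized counts and 33.8% of all 32851 windows. Among the synthesis enzymes 16 of 20 windows (80.0%) held it. The GC box GGGCGG was in 28 windows (73.7%), compared with 59.7% and 32.7% of the same backgrounds. CCAAT was present in 15 of 21 windows of lower genes, 5 of 6 windows of higher genes and 6 of 11 windows of genes that were not called, so its presence did not separate the directions. TCACNCCAC was found in 1 window, that of *Hmgcs1* (2.63%, beside 0.929% of the 9471 windows). Other spellings of a sterol regulatory element were not searched for, so a window without this match may still hold one. *Acat1*, *Fdps*, *Fdft1*, *Sqle*, *Scarb1*, *Npc1* and *Stard4* had no window, so none of the motifs was searched for in them. These are matches of letters and not measured binding sites. The sequences below are those of 3 genes that fell, a strongly lowered mevalonate enzyme, the first enzyme after lanosterol and a sterol sensor. They are followed by the sequences of the gene with the TCACNCCAC match and of both genes that rose most. Each is written 5′ to 3′ along the gene's strand, ends at the base before the RefSeq start site, and carries the matches to the 3 motifs in capitals, none of which overlap here. Gene positions in this text are from GENCODE, whose starts can differ. The windows of *Cyp51*, *Insig1*, *Npc2* and *Soat1* reach into the gene as GENCODE places it.
*Mvd* (chr8:122443423-122443672, minus strand): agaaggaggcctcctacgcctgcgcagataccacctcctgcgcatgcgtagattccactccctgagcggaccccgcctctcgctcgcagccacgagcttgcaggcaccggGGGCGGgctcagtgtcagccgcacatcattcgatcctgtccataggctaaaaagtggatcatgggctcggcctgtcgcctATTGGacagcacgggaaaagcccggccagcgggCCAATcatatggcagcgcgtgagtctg
*Cyp51* (chr5:4104698-4104947, minus strand): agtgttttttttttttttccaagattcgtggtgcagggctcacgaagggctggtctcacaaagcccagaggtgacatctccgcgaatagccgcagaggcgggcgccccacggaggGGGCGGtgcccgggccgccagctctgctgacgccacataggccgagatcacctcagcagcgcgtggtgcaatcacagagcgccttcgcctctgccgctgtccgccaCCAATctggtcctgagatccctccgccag
*Insig1* (chr5:28071162-28071411, plus strand): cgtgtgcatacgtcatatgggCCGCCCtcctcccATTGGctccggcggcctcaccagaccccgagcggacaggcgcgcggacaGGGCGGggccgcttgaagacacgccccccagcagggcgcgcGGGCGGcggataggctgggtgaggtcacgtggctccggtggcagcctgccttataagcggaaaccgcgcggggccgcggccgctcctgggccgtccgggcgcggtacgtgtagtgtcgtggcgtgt
*Hmgcs1* (chr13:119690101-119690350, plus strand): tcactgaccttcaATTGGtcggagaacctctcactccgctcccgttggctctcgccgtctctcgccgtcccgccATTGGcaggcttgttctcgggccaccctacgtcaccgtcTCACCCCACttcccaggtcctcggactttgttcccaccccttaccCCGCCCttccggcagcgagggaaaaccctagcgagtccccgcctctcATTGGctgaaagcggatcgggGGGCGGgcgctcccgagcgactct
*Npc2* (chr12:84773113-84773362, minus strand): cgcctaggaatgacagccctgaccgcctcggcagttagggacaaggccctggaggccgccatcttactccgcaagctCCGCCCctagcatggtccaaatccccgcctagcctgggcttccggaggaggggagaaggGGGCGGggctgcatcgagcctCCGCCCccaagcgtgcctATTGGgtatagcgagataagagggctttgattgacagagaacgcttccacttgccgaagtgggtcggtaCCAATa
*Soat1* (chr1:156474329-156474578, minus strand): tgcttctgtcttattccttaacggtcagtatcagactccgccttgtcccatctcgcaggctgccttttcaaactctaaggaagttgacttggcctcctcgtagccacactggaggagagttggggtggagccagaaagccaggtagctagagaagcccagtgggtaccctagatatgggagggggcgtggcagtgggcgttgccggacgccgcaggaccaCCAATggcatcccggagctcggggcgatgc
The *Mvd* window held 2 CCAAT matches, the nearer 27 bases before the start, and 1 GC box. The *Cyp51* window held 1 of each, with CCAAT 29 bases before the start. *Insig1* had 1 CCAAT match and 3 GC boxes, and *Hmgcs1* had 3 and 2. The *Npc2* window, of a gene that moved the other way, held 2 CCAAT matches and 3 GC boxes, and that of *Soat1* held 1 CCAAT match 30 bases before the start and no GC box.

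Most genes of the mevalonate pathway were lower. Of the 9 enzymes listed for it, with mitochondrial *Acat1* counted, 7 were lower, none was higher, and the median log2 fold change was -0.30. The 4 largest falls were in the 3 consecutive steps that phosphorylate mevalonate and decarboxylate it to isopentenyl diphosphate, and in *Fdps*. *Mvk*, mevalonate kinase, went from 1032 normalized counts in control cells to 657 in *Ms4a15* OE cells, a log2 fold change of -0.65 (95% confidence interval -0.82 to -0.49, adjusted p = 7.34e-14). Brackets from here on give the log2 fold change, its 95% confidence interval and the adjusted p of the same Wald test. *Pmvk*, which adds the second phosphate, went from 1269 to 690 normalized counts (-0.88, -1.02 to -0.74, adjusted p = 2e-33). *Mvd*, the decarboxylase (chr8:122433601-122443422, minus strand, GRCm38), went from 1202 to 574 normalized counts, 0.477 of the control level (-1.07, -1.23 to -0.90, adjusted p = 2.52e-34), and was the gene of the 36 with the lowest value. *Fdps*, which makes farnesyl diphosphate and is the target of nitrogen bisphosphonates, fell from 8916 to 5467 normalized counts (-0.71, -0.78 to -0.63, adjusted p = 2.89e-76), with 26.7% of its exon bases shared with the annotated gene Gm43738 on the same strand.

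The other 5 genes had smaller log2 fold changes. *Idi1*, the isomerase between both 5-carbon isoprenoids, fell from 3172 to 2578 normalized counts (-0.30, -0.42 to -0.18, adjusted p = 5.4e-06). The listed thiolases, mitochondrial *Acat1* and cytosolic *Acat2*, fell to 0.875 and 0.917 of control, with log2 fold changes of -0.19 (adjusted p = 3e-05) and -0.13 (adjusted p = 0.0232). Of these, *Acat2* begins the pathway in the cytosol. *Acat3*, a near-identical copy of *Acat2*, was counted at a mean of 4.40. *Hmgcs1*, which makes HMG-CoA and is usually abundant, stood at 64.2 and 54.9 normalized counts, with an interval from -0.74 to 0.29 (adjusted p = 0.584), which spans both a fall as large as that of *Mvk* and a rise, so that a change was not detectable at this depth. The cause of its low count was not tested. *Ggps1*, which extends farnesyl to geranylgeranyl diphosphate for protein prenylation, stood at 1997 and 2135 normalized counts (0.10, -0.01 to 0.20, adjusted p = 0.159).

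From squalene to lanosterol the genes differed little. *Fdft1*, squalene synthase, fell from 4582 to 4041 normalized counts (-0.18, -0.27 to -0.10, adjusted p = 8.68e-05). Its exons share 18.3% of their bases with *Ctsb* on the opposite strand, a gene whose level went up from 21975 to 33467 normalized counts (adjusted p = 7.10e-84), and the strand setting of the counting is not given in the sources used here. *Sqle*, the squalene epoxidase and a rate-limiting enzyme, stood at 7944 and 7536 normalized counts (-0.08, -0.15 to -0.00, adjusted p = 0.093). *Lss*, which closes the rings to lanosterol, stood at 2827 and 2702 (-0.06, -0.16 to 0.03, adjusted p = 0.301). For both enzymes the interval leaves out a fall as large as that of *Mvk*.

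The first enzyme to act on lanosterol stood apart from its neighbours in the pathway. *Cyp51*, lanosterol demethylase (chr5:4081145-4104746, minus strand, GRCm38), went from 12640 to 7145 normalized counts, 0.565 of control (-0.82, -0.90 to -0.74, adjusted p = 3.44e-92). The reductases that follow were not called: *Lbr*, which is also the lamin B receptor of the nuclear envelope, stood at 4753 and 4617 normalized counts (-0.04, -0.12 to 0.04, adjusted p = 0.507). *Tm7sf2*, its partner in the same step, was scarce at 27.6 and 25.0 normalized counts, with an interval from -0.87 to 0.59 (adjusted p = 0.867). All 3 listed genes of the demethylation complex at carbon 4 were lower against control. The oxidase *Msmo1* fell from 6907 to 5738 normalized counts (-0.27, -0.35 to -0.19, adjusted p = 2.48e-10). The X-linked dehydrogenase *Nsdhl* fell from 2143 to 1702 (-0.33, -0.44 to -0.22, adjusted p = 1.41e-08). The ketoreductase *Hsd17b7* fell from 1739 to 1520 (-0.19, -0.30 to -0.08, adjusted p = 0.00166). Of these only *Nsdhl* kept its call relative to the genes around it on the chromosome: with the median of the 20 genes on either side subtracted, *Hsd17b7* was at -0.11 (adjusted p = 0.0963) and *Msmo1* was higher (0.10, adjusted p = 0.0234), and with the median of the whole chromosome subtracted they were at -0.04 (adjusted p = 0.614) and 0.11 (adjusted p = 0.0179).

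Of the enzymes around 7-dehydrocholesterol, both that lead to it were higher and the reductase that follows was not called. *Ebp*, the isomerase that shifts the ring double bond, rose from 1263 to 1549 normalized counts (0.29, 0.16 to 0.43, adjusted p = 3.89e-05). *Sc5d*, the desaturase that makes 7-dehydrocholesterol (chr9:42251595-42264256, minus strand, GRCm38), rose from 3224 to 4247 normalized counts, 1.32-fold (0.40, 0.31 to 0.49, adjusted p = 4.33e-17). *Dhcr7*, the reductase that uses it up to give cholesterol, stood at 1101 and 999 normalized counts (-0.14, -0.27 to -0.01, adjusted p = 0.0804). It was called lower when the median of its chromosomal neighbours (-0.21, adjusted p = 0.00477) or of its chromosome (-0.15, adjusted p = 0.0480) was subtracted. *Ebp* and *Sc5d* were the only higher genes among the 21 synthesis enzymes, of which 12 were lower. The 12 enzymes from squalene to cholesterol held 5 lower and 2 higher genes, with a median log2 fold change of -0.14. That is 58.3% called and 41.7% lower, beside 65.6% and 34.9% of the genes averaging 100 or more normalized counts. Whether the difference between *Sc5d* and *Dhcr7* exceeds its error was not tested, although their 95% intervals do not overlap. Transcript levels do not give the amount of 7-dehydrocholesterol.

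The sensing machinery was lower in 5 of 7 genes and higher in none, with a median log2 fold change of -0.38. *Srebf2*, which encodes SREBP2, went from 11590 to 8611 normalized counts (-0.43, -0.53 to -0.33, adjusted p = 7.16e-16). *Srebf1*, whose products act mainly on fatty acid genes, fell less, from 2118 to 1829 (-0.21, -0.36 to -0.06, adjusted p = 0.0153). The escort *Scap* stood at 3242 and 2987 normalized counts (-0.12, -0.24 to -0.00, adjusted p = 0.102). Both retention proteins were lower: *Insig1*, itself a target of SREBP, went from 3398 to 2178 normalized counts (-0.64, -0.74 to -0.55, adjusted p = 3.58e-38). *Insig2*, known for its independence of SREBP, went from 1545 to 1112 (-0.47, -0.60 to -0.35, adjusted p = 3.77e-12). Against control, the proteases that release SREBP differed in their calls. *Mbtps1*, site-1 protease, fell from 8573 to 6567 normalized counts (-0.38, -0.46 to -0.31, adjusted p = 7.2e-23). *Mbtps2*, site-2 protease, stood at 2007 and 2060 (0.04, -0.07 to 0.15, adjusted p = 0.693), and 28.4% of its exon bases are shared with *Yy2*, which lies on the same strand and had a log2 fold change of 0.29. With the median of neighbouring genes subtracted, *Mbtps1* (-0.01, adjusted p = 0.894) and *Insig2* (-0.15, adjusted p = 0.0556) lost their calls. *Mbtps2* was then at -0.10 (adjusted p = 0.155), and *Scap* was called lower (-0.23, adjusted p = 0.000388). The list then held 4 lower genes and no higher gene.

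Uptake, transport and storage genes were split, with 4 higher, 3 lower and 1 not called, and a median log2 fold change of 0.04. The pair with the strongest rises of the 36 genes lies here. *Npc2*, the soluble lysosomal protein that takes up free cholesterol (chr12:84754562-84773152, minus strand, GRCm38), went from 11443 to 21215 normalized counts, 1.85-fold (0.89, 0.82 to 0.96, adjusted p = 3.71e-151). *Soat1*, which esterifies cholesterol for storage in lipid droplets (chr1:156424525-156474331, minus strand, GRCm38), went from 4559 to 8553 normalized counts, 1.88-fold (0.91, 0.82 to 0.99, adjusted p = 1.26e-93). These log2 fold changes lay above those of 95.4% and 95.5% of the 10440 genes averaging 100 or more normalized counts. *Npc1*, the lysosomal membrane partner of *Npc2*, rose from 2644 to 2931 (0.15, 0.05 to 0.25, adjusted p = 0.00749), but was not called after subtraction of its neighbours' median (0.10, adjusted p = 0.0776). With that subtraction the list held 3 higher and 4 lower genes.

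Some markers of other cell types were higher as well. The summed counts of 5 myeloid markers went from 136 to 1320, mostly through *Lyz2* (40.7 to 1026) and *Cd68* (67.1 to 261), a lysosomal protein, while the defining marker *Ptprc* stood at 14.8 and 7.44 normalized counts and was not called. Those of 6 adipocyte markers went from 35.1 to 406, mostly through *Pparg* (22.6 to 299) and *Cidec* (0.338 to 80.6), and those of 6 endothelial markers from 41.4 to 240. The part of these markers in the rises of *Npc2* and *Soat1* was not tested.

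The lipoprotein receptors of this list moved apart. *Scarb1*, the HDL receptor, fell from 12242 to 8068 normalized counts (-0.60, -0.68 to -0.52, adjusted p = 6.21e-46). *Vldlr*, the VLDL receptor, rose from 1814 to 2174 (0.26, 0.16 to 0.37, adjusted p = 4.17e-06). *Mylip*, a ubiquitin ligase that directs lipoprotein receptors to degradation, fell from 662 to 561 normalized counts (-0.24, -0.40 to -0.07, adjusted p = 0.0114). Of the carriers between membranes, *Osbp*, which moves cholesterol from the endoplasmic reticulum to the Golgi apparatus, fell from 3945 to 3079 (-0.36, -0.45 to -0.27, adjusted p = 8.39e-14). *Stard4*, a soluble cholesterol carrier, stood at 4194 and 4011 normalized counts (-0.06, -0.16 to 0.03, adjusted p = 0.300).

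Levels were compared between genes as group means per kb of annotated exon. In control cells *Cyp51* had the highest level of the 36 genes, with 2863 normalized counts per kb, followed by *Fdps* with 2119 and *Npc2* with 2104. In *Ms4a15* OE cells the first place went to *Npc2* with 3901 normalized counts per kb, while *Cyp51* had 1618 and *Fdps* 1299. *Hmgcs1* (13.98 and 11.9 normalized counts per kb) and *Tm7sf2* (6.27 and 5.69) were last in both groups. Summed over the genes of a list, the mevalonate enzymes went from 7410 to 5405 normalized counts per kb, a ratio of 0.729, and the enzymes from squalene to cholesterol from 10261 to 8703, a ratio of 0.848. The SREBP machinery went from 4981 to 3776 (0.758), and uptake, transport and storage from 6259 to 7777 (1.24). These sums are dominated by their most abundant genes and carry no error of their own. The standard errors implied a coefficient of variation among libraries of a group with a median of 4.29% for the 36 genes. It was 5.17% for all genes averaging 100 or more normalized counts, 22.3% for *Hmgcs1* and 31.7% for *Tm7sf2*. These are values of the fitted model, which depend on the count level, and not spreads measured among libraries.

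**Figure D3:**
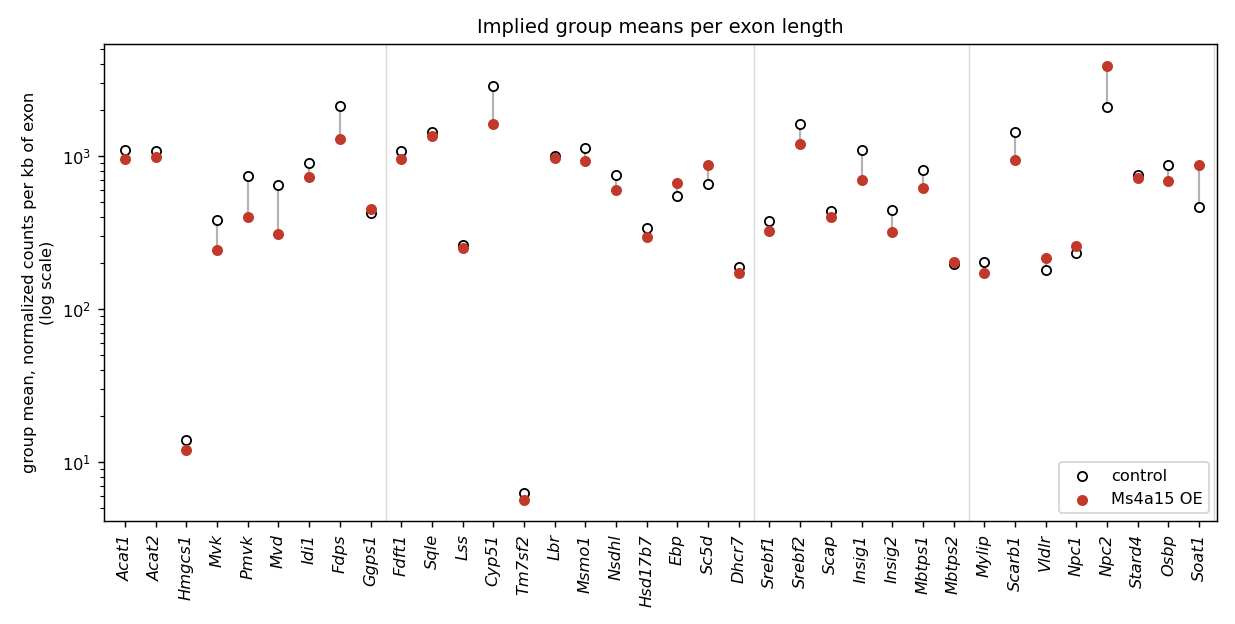
Group means in normalized counts per kb of exon on a log scale, for control cells (open circles) and *Ms4a15* OE cells (red circles), with grey lines joining the groups and vertical lines parting the lists. *Npc2* rises from 2104 to 3901 and becomes the highest gene, *Cyp51* falls from 2863 to 1618, and *Hmgcs1* and *Tm7sf2* lie far below the others. Errors of single libraries are not drawn.

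Several lowered genes lie on chromosomes whose median gene was below 0. The median log2 fold change over genes averaging 100 or more normalized counts was -0.38 on chromosome 8, -0.35 on chromosome 3, -0.26 on chromosome 19, -0.17 on chromosome 5 and -0.15 on chromosome 1. On chromosomes 3, 5 and 8, 2 of 2, 4 of 4 and 3 of 3 cholesterol genes were lower. Chromosome 1 held 2 lower and 1 higher of 4 genes, and chromosome 19 held 1 lower and 1 higher of 3. For each gene, the median of the 20 genes on either side was therefore set beside its own value, and these medians ran from -0.40 for *Mvd* to 0.24 for *Sqle*. Of the 14 genes with a neighbour median below -0.1, 11 were lower and 1 was higher, and of the other 22 genes 9 were lower and 5 were higher. The shares of all genes lower on these chromosomes, or at such neighbour medians, were not calculated. An excess among the cholesterol genes therefore cannot be read from these counts. The part of chromosomal position in these differences was not tested, but the difference from the neighbours could be given, with the neighbour median taken as free of error.

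*Mvd* differed from its neighbours by -0.67 (95% confidence interval -0.83 to -0.50), *Cyp51* by -0.68 (-0.755 to -0.60) and *Pmvk* by -0.57 (-0.71 to -0.43). *Srebf2*, whose neighbours had a median of 0.07, differed by -0.50 (-0.60 to -0.40). *Insig1* and *Fdps* differed by -0.34 each, less than their falls against control. *Mbtps1* did not stand apart from its neighbours (-0.01, -0.08 to 0.06), and *Insig2* differed by -0.15 (-0.28 to -0.02), no longer called after adjustment (adjusted p = 0.0556). *Msmo1*, lower against control, was higher than its neighbours by 0.10 (0.03 to 0.18, adjusted p = 0.0234). *Sqle* differed from its neighbours by -0.32 (-0.39 to -0.25, adjusted p = 1.75e-16), although its own change was not called. *Scap* (-0.23, adjusted p = 0.000388) and *Stard4* (-0.27, adjusted p = 5.11e-08) were likewise called only after subtraction. *Osbp* kept its call against its neighbours (-0.18) but not against its chromosome (-0.10, adjusted p = 0.0648). *Sc5d* (0.28), *Npc2* (0.81) and *Soat1* (1.06) stayed higher than theirs. After subtraction the median over all 36 genes was -0.22, and 26 genes were called (20 lower, 6 higher), 22 of them among the 26 called without it. The same subtraction called 45.0% of the 16201 placed genes, a share that includes rarely counted genes.

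**Figure D4:**
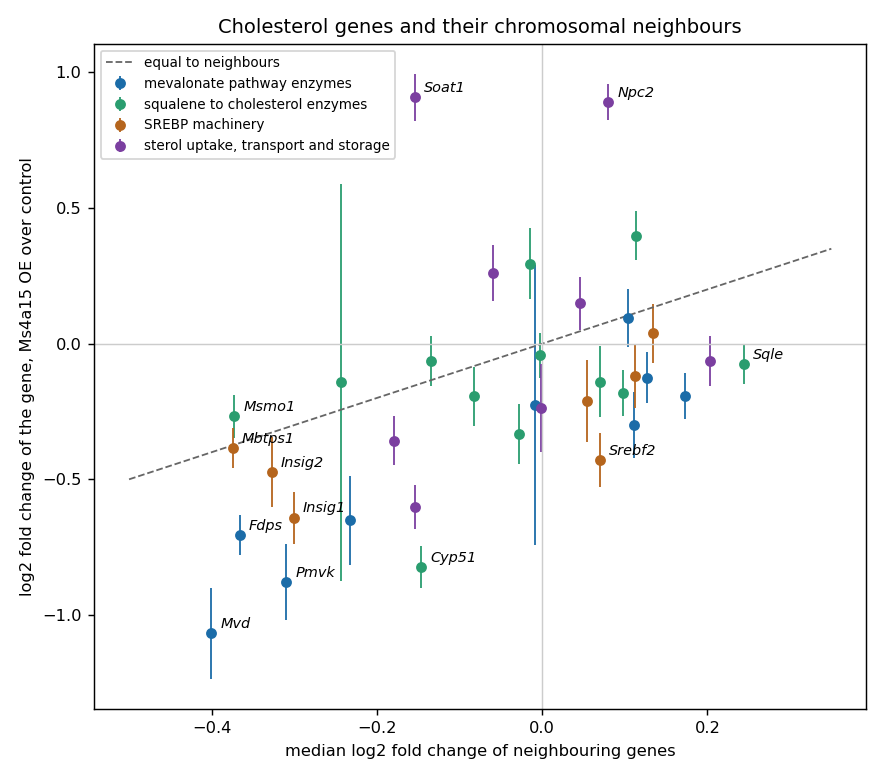
Log2 fold change of each of the 36 genes (vertical axis, bars 95% confidence intervals) against the median of its 20 neighbours on either side (horizontal axis, log2 fold change), with a dashed line where both are equal. *Mbtps1* and *Msmo1* lie near the line at neighbour medians of -0.37, *Mvd*, *Pmvk*, *Cyp51* and *Srebf2* lie below it, and *Soat1* and *Npc2* lie far above it.

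Other genes of sterol handling showed no common direction. Of 58 listed, 56 were in the table, 20 were higher and 16 were lower (64.3% called), and the median log2 fold change was 0.05. The share called was near that of the 10440 genes averaging 100 or more normalized counts, 65.6%, with 34.9% lower and 30.7% higher. The counts of the smaller lists that follow stand beside the same background. Genes of sterol transport between membranes were higher in 9 of 19 and lower in 4, with a median of 0.22. Genes of sterol-regulated degradation and retention in the endoplasmic reticulum were lower in 6 of 10 and higher in 2, with a median of -0.16. Genes of isoprenoid use were higher in 5 of 12 and lower in 4, lipoprotein receptors and adaptors were higher in 1 of 6 and lower in 1, and genes of oxysterol response and efflux were higher in 3 of 9 and lower in 1.

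Among these genes, another esterifying enzyme rose. *Soat2*, the second cholesterol esterifying enzyme, rose from 330 to 779 normalized counts (log2 fold change 1.24, 1.06 to 1.41, adjusted p = 8.21e-43). *Stard5*, a cholesterol-binding carrier, rose from 524 to 1135 (1.12, 0.97 to 1.26, adjusted p = 5.65e-49), with 22.0% of its exon bases overlapping *Il16* on the opposite strand, which had a mean of 1.70. The sterol transporters of the plasma membrane contact sites moved apart: *Gramd1b* rose from 299 to 482 normalized counts (0.69, 0.49 to 0.89, adjusted p = 8.09e-11), and *Gramd1a* fell from 1361 to 909 (-0.58, -0.74 to -0.43, adjusted p = 8.04e-13). *Lipa*, the lysosomal acid lipase that frees cholesterol from lipoprotein esters, fell from 1948 to 1322 (-0.56, -0.68 to -0.44, adjusted p = 1.29e-18). *Icmt*, which methylates prenylated proteins, fell from 2923 to 2151 (-0.44, -0.54 to -0.34, adjusted p = 8.98e-18). The neighbours of *Icmt* had a median of -0.46, and the gene differed from it by 0.02.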

How the data were processed

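Poly(A) RNA of 3 *Ms4a15* OE and 3 control libraries was sequenced in pairs, strand-specifically per the labels. Per the study's methods the authors aligned reads with STAR to mm10, counted them with HTSeq over UCSC knownGene and fitted DESeq2. The submitters' processing notes name TopHat, Cufflinks, Cuffdiff, HTSeq and DESeq2. The authors deposited a table of the fit with, for each gene, a mean signal over all libraries (counts divided by size factors), a log2 fold change and its standard error, p-values, and a label of direction. The deposited log2 fold changes and standard errors were the only source of the comparison, because library-by-library values were not used here. The p-values of the Wald test were computed anew from them (SciPy 1.17.1) and lay within 2% of all 19018 deposited p-values above 0. The Benjamini-Hochberg adjustment over 19078 genes called the same 8187 genes as the deposited adjusted p-values.

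Group means were solved from the mean and the fold change, assuming equal group sizes and an unshrunken fold change. Relative library sizes were read from genes counted in 1 library. Positions and exon lengths came from GENCODE M21 (GRCm38), with 16201 genes placed, and promoters from RefSeq. The calculation was tested on simulated data. The genes of each list were chosen with earlier results of these data known. All 36 cholesterol genes could be named, and of the other sterol genes those with the 4 largest rises and the 4 largest falls among called genes with a mean of at least 100, some of which are not reported here. Alternatives were a test against 1.2-fold, a log2 fold change of at least 1, a mean of at least 10, centring on the median, and subtraction of the median of neighbouring genes or of the chromosome.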

Additional observations from a re-analysis of the deposited data

How the results depend on the processing

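No paired analysis was possible because library-by-library values were not used here, and for the same reason leaving out replicates, edgeR and a new DESeq2 fit were not run. Requiring a larger change shortened each list. Against a change of 1.2-fold, calls went from 26 to 13 of the 36 cholesterol genes, from 7 to 4 of the mevalonate enzymes, from 7 to 2 of the enzymes from squalene to cholesterol, from 7 to 3 of the uptake, transport and storage genes, from 36 to 11 of the other sterol genes and from 8187 to 3591 of all genes. When the log2 fold change had to reach 1 in either direction, 1 cholesterol gene was called, the mevalonate enzyme *Mvd*, and the other 3 lists held 0, beside 5 other sterol genes and 1944 genes in all. A mean of at least 10 left 26 of the 36 called and centring left 25, without *Acat2*. Subtracting the median of neighbouring genes left 26 and turned the sign of *Msmo1* (0.10, adjusted p = 0.0234) and of 4 genes that were not called, *Ggps1* (-0.0085), *Lss* (0.070), *Tm7sf2* (0.10) and *Mbtps2* (-0.10). Subtracting the chromosome's median left 27 and turned *Msmo1* (0.11, adjusted p = 0.0179), *Lbr* (0.11, adjusted p = 0.0241), *Tm7sf2* (0.12) and *Mbtps2* (-0.018). Of all genes tested, a mean of at least 10 called 62.1%, centring 42.8%, subtraction of neighbours 45.0% and subtraction of the chromosome 44.9%. Of the 36 genes, 12 kept their direction and their side of the threshold under the 5 alternatives given for single genes. Low counts limit *Hmgcs1* and *Tm7sf2*.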
